A study of Drosophila melanogaster with 6 samples.

Results

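The genes described here are the 4 families of neuronal cell-surface proteins named Beat, Side, Dpr and DIP, taken as every row of the count table whose annotated symbol starts with beat-, dpr and a number, or DIP-, or is side or starts with side-. This gave 54 of 17753 genes, of which 14 were beat, 8 were side, 21 were dpr and 11 were DIP genes. The families were chosen with the DomKD against Ctrl contrast of these libraries already known, since beat-Vc and beat-Ic were among its largest changes. Every comparison of members between DomKD and Ctrl below is therefore a description. Members are sorted by an adjusted p threshold, but those calls are labels only and no p-value is printed for a member.

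Nascent transcription was measured by GRO-seq, a nuclear run-on assay in which polymerases already engaged on DNA extend their RNA with a labelled nucleotide, in whole Drosophila melanogaster embryos at stage 5, when the zygotic genome is activated. DomKD embryos (genotype label t216) were laid by females in which mat-alpha-Gal4, a maternal germline driver, expressed a short hairpin RNA against domino, the ATPase that exchanges H2A.Z (H2Av in flies) into nucleosomes. Ctrl embryos (genotype label t180) were laid by females with the same driver and a control line of the RNAi collection. Both groups therefore carried the driver, but whether the control line expressed any hairpin is not stated. The depletion was maternal and not restricted to any tissue of the embryo, and each library came from a pool of hand-picked embryos. The labels give 3 libraries per group and mark each with the letter A or B, without saying what the letters stand for. The libraries of each letter are called a batch here. Batch A holds DomKD A1, DomKD A2 and Ctrl A1, and batch B holds DomKD B1, Ctrl B1 and Ctrl B2. Values of single libraries are listed as A1, A2, B1 for DomKD and as A1, B1, B2 for Ctrl.

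All 4 families encode proteins with extracellular immunoglobulin domains. Side lies on the surfaces along which motor axons grow, Beat proteins are its receptors on the axons, and later members of both families bind in the same receptor and ligand manner. Dpr proteins bind DIP proteins, each Dpr with few DIPs, and these contacts help neurons to choose synaptic partners. The families are known for roles in differentiated neurons, which a stage 5 embryo does not yet contain.

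Libraries held 10660708 to 15790602 counts in DomKD and 12487166 to 24537992 counts in Ctrl. Nascent transcription of dom itself in the embryonic nuclei was at 665 to 966 CPM (counts scaled to a common library size) in DomKD and 707 to 848 CPM in Ctrl, which does not check a maternal depletion. Marker genes of the stage moved with the groups and with the batches. All 23 of 23 tested genes that mark the stage 5 embryo, from the gap, pair-rule, dorsoventral and cellularisation genes, were higher in DomKD (median log2 fold change 1.13). Their summed level was 51900, 48000 and 31200 CPM in DomKD and 24600, 14100 and 10800 CPM in Ctrl. Within each group the libraries of batch A were thus above those of batch B. Of 16 tested markers of differentiated neurons 3 were higher and none lower, with sums of 585 to 972 CPM in DomKD and 590 to 947 CPM in Ctrl. Syx1A and VAChT were at 0 in all 6 libraries. Such zeros are not read as silence, because Sry-alpha, on the list of stage markers, was also at 0 in all 6. These counts rest on the main scaling (TMM), under which 12.1% of all genes tested were called higher and 9.64% lower. Most of the stage markers are on the list of Zelda target genes used below as another scaling. Under that scaling the median log2 fold change of all genes tested was −0.99 in place of −0.07. The stage markers were not counted under it. The part of the stage markers in the results below was not tested, and in whole embryos fewer cells and less RNA per cell cannot be told apart.

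Most family genes were transcribed at a low level. Per kb of counted length, introns included, the mean Ctrl level of the 54 genes had a median of 0.134 CPM, against 8.58 CPM over all 10429 genes tested, and 1 member, beat-IIIc, lay above that median. For tested genes of at least 10 kb the median was lower, at 1.74 CPM per kb. In Ctrl 11 members reached 1 CPM per kb, 19 lay between 0.1 and 1, and 24 lay under 0.1. They are also long, with a median of 36.2 kb and a range from 3.7 kb for dpr19 to 379.1 kb for DIP-lambda, against a median of 2.6 kb for all genes tested. At these levels the number of reads limited what could be compared, because 15 members were at 0 in at least 1 library.

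**Figure D1:**
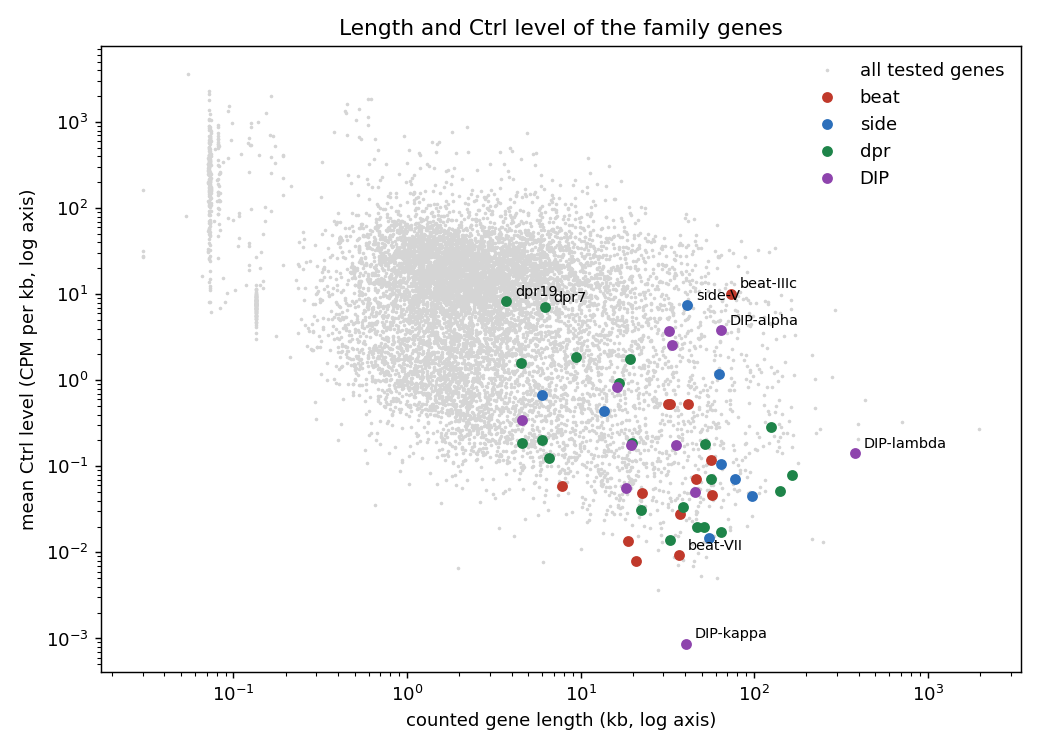
Mean Ctrl level (CPM per kb, log axis) against counted gene length (kb, log axis), with each tested gene as a grey point and the family genes in colour. The family genes sit in the long, low part of the cloud, except beat-IIIc (10.1 CPM per kb), dpr19 (8.26), side-V (7.41) and dpr7 (7.13). beat-IIIa, at 0, cannot be drawn on the log axis.

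The members highest in Ctrl per kb of length came from all 4 families. beat-IIIc stood at 10.1 CPM per kb, dpr19 at 8.26, side-V at 7.41 and dpr7 at 7.13, and the Ctrl libraries of each overlapped those of the next. DIP-alpha followed at 3.82 and DIP-theta at 3.74 CPM per kb, also overlapping, with all Ctrl libraries of DIP-alpha below those of dpr7. beat-IIIc alone made up 44.8% of the summed CPM of the 54 genes in DomKD and 37.2% in Ctrl.

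By the rule of at most 3 counts in every Ctrl library, 2 of the 54 genes were silent in Ctrl, DIP-kappa and beat-IIIa, against 29.7% of all rows of the table and 22.8% of the protein-coding rows. The rule takes raw counts and makes no allowance for the greater length of the members. DIP-kappa had no read in the 3 DomKD libraries, against 0, 3 and 0 counts in Ctrl, over a gene of 40.5 kb. beat-IIIa had 0 counts in all 6 libraries, but its span is covered in full on the same strand by the gene CG34106, also at 0, so reads there could not be assigned to either and its transcription was not measured. By the highest Ctrl count, the member just outside the rule was beat-IIIb, with 0, 0 and 17 counts in DomKD against 0, 2 and 11 in Ctrl. Next came beat-VII, with 24, 46 and 21 counts in DomKD against 4, 8 and 12 in Ctrl, and dpr13, with 21, 55 and 0 counts in DomKD against 15, 3 and 5 in Ctrl. beat-Vb followed, with 0, 10 and 0 counts in DomKD against 0, 4 and 16 in Ctrl. DIP-kappa, beat-IIIa, beat-IIIb and beat-Vb had a mean under 10 counts and were the 4 members not tested. DIP-kappa, the one measured member silent in Ctrl, thus gained no reads in DomKD.

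**Figure D2:**
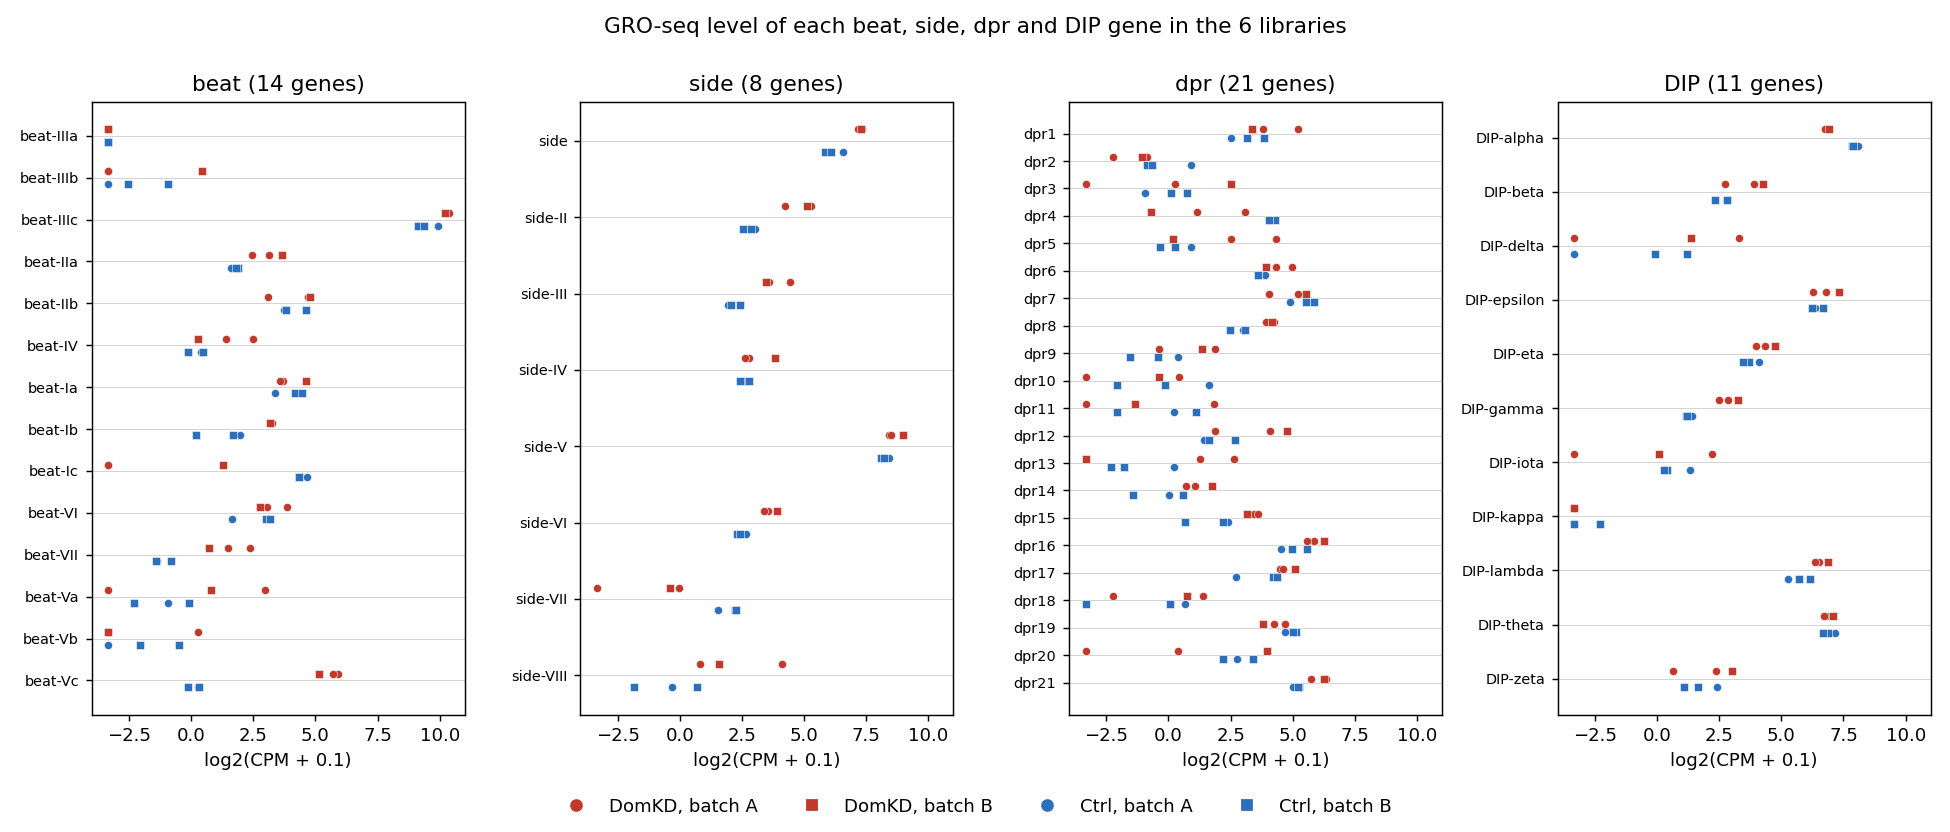
Level of all 54 genes, one panel per family, as log2 of CPM plus 0.1 on the x axis, with DomKD libraries in red above Ctrl libraries in blue and circles for batch A, squares for batch B. beat-Vc (35.7 to 59.8 CPM in DomKD against 0.808 to 1.16 in Ctrl) and beat-Ic (0 to 2.32 CPM in DomKD against 20.1 to 25.5 in Ctrl) show the widest gaps, and points at the left edge are libraries without a read.

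These 50 members, of the 54 (58.7% of all rows and 66.4% of protein-coding rows had enough reads), were tested with all genes of the table. With edgeR's quasi-likelihood test and a Benjamini-Hochberg adjusted p of 0.05 over 10429 genes, 9 were called higher in DomKD and 3 lower, and 38 did not pass. Over all genes tested 12.1% were called higher and 9.64% lower, or 21.7% in either direction. Of the 40 tested members of at least 10 kb, 22.5% were higher and 5% were lower, against 23.1% higher and 8.19% lower among all 1867 tested genes of that length. The 3 libraries of DomKD did not overlap those of Ctrl for 25 of the 50 members, against 40.6% of all genes tested. Nothing is read from these shares about the families, which were chosen on this contrast. When DomKD B1 is left out, batch B has no DomKD library, and that fit called 6 of 10450 genes higher and 3 lower. When Ctrl A1 is left out, batch A has no Ctrl library, and the fit called 458 of 10454 genes higher and 189 lower. The main fit called 1259 and 1005. A call lost without DomKD B1, as reported for members below, is therefore not particular to the member, and one lost without Ctrl A1 need not be.

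The median log2 fold change of the members (DomKD over Ctrl) was 0.95, with 38 positive and 12 negative values, beside −0.07 for all genes tested and 0.42 for tested genes of at least 10 kb. By family the median was 0.92 for beat, 1.09 for side, 0.99 for dpr and 0.57 for DIP. These medians depend on how the libraries are scaled: with total counts the members' median was 0.46 and that of all genes −0.56, and with libraries scaled on a written list of Zelda target genes they were 0.03 and −0.99, where the DIP median turned negative (−0.35) and those of the other families were no higher than 0.17. The gap between both medians was 1.02 or 1.03 under each of the 5 scalings tried. A scaling shifts all genes by about the same amount, so this gap could not have changed and nothing is read from it.

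**Figure D3:**
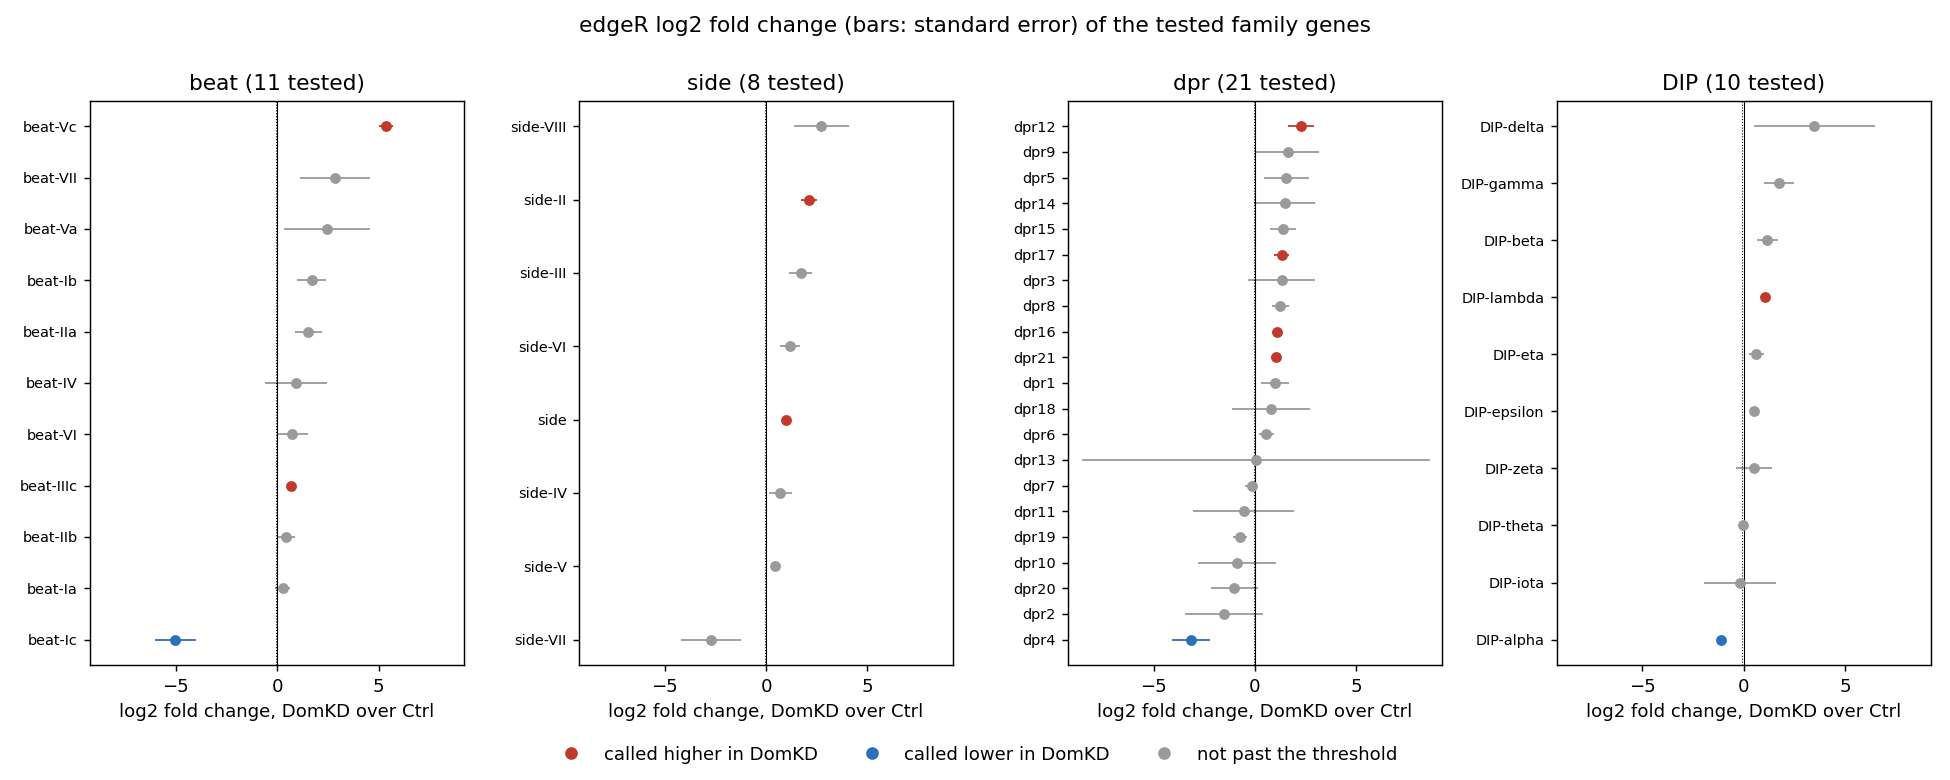
Log2 fold change (DomKD over Ctrl) with its standard error for the 50 tested genes, sorted within each family, with red for called higher, blue for called lower and grey for not past the threshold. The solid line marks 0 and the dotted line the median of all genes tested (−0.07). beat-Vc lies at 5.37 and beat-Ic at −5.02, and wide bars belong to genes with few reads.

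Among the beat genes, which encode the receptor side of the Beat and Side system, 2 of 11 tested were called higher, 1 lower, and 8 did not pass. beat-Vc, a gene of 37.2 kb on chromosome 3R, was counted 536, 466 and 478 times in DomKD, against 16, 23 and 30 times in Ctrl. That is 59.8, 51.7 and 35.7 CPM in DomKD and 1.13, 0.808 and 1.16 CPM in Ctrl. All DomKD libraries were far above all Ctrl libraries, and the log2 fold change was 5.37 ± 0.36 (SE), a 41.3-fold higher level in DomKD. The difference was 5.47 in batch A and 5.04 in batch B taken alone. Of its neighbours in the same cluster, beat-Va, 57344 bases away, was counted 70, 0 and 22 times in DomKD and 6, 3 and 22 times in Ctrl, and beat-Vb was the nearly silent gene described above.

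beat-Ic, of 41.4 kb on chromosome 2L, was the opposite case. It was counted 0, 0 and 31 times in DomKD, against 359, 573 and 523 times in Ctrl. The groups did not overlap, and the fitted log2 fold change was −5.02 ± 1.01 (SE). The DomKD libraries differed by batch: both libraries of batch A had no read, so the level there was at least 76.1-fold lower than in Ctrl A1 (with a floor of 3 counts per library), while in batch B DomKD B1 was at 2.32 CPM, against 20.1 and 20.2 CPM in Ctrl B1 and B2. Without Ctrl A1 the log2 fold change was −3.18 and no longer passed, and without DomKD B1 no DomKD library had a read. Of its neighbours on either side, beat-Ia, 8262 bases away, had a log2 fold change of 0.27 and beat-Ib, 37856 bases away, 1.70 ± 0.70, and neither passed.

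The sequences of 4 upstream regions are shown because beat-Vc and beat-Ic had the largest changes, DIP-alpha the most reads of the members called lower, and beat-IIb the most matches to a motif found in most of the members. Each is the 250 bases that end just before the annotated start of the gene, read 5′ to 3′ on the gene's strand from the RefSeq genome of the dm6 build, with matches to GAGAG or its reverse complement CTCTC in capitals. The positions are chr3R:12783217-12783466 (minus strand) for beat-Vc, chr2L:16000041-16000290 (plus strand) for beat-Ic, chrX:3571650-3571899 (minus strand) for DIP-alpha and chr3R:17265050-17265299 (minus strand) for beat-IIb.
beat-Vc: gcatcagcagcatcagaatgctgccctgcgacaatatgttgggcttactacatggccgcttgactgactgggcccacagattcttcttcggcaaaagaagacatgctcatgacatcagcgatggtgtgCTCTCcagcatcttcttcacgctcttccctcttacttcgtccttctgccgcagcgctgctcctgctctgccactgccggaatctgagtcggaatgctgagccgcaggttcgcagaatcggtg
beat-Ic: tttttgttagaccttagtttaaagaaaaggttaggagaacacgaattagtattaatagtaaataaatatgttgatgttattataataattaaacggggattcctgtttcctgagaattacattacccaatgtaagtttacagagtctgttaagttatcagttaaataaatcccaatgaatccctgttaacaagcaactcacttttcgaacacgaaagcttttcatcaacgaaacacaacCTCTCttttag
DIP-alpha: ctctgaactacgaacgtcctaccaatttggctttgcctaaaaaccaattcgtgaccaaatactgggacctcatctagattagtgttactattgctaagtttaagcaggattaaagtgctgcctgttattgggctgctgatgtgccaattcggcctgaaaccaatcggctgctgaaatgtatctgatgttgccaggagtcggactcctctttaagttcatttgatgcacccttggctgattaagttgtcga
beat-IIb: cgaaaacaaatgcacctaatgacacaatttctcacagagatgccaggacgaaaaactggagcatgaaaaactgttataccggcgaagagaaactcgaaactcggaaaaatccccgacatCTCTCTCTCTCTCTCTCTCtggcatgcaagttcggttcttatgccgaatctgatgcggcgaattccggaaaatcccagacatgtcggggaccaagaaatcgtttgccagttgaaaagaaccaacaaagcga

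GAGAG, the core recognised by GAGA factor, was present on either strand in 31 of the 54 windows (57.4%), against 25.7% of the windows of 13827 protein-coding genes. By family, 12 of 14 beat, 5 of 8 side, 10 of 21 dpr and 4 of 11 DIP genes held it. beat-Vc and beat-Ic, with opposite calls, each had 1 match, and DIP-alpha had none. Overlapping matches were counted, and the 8 matches of beat-IIb are 1 run of alternating C and T. The members' windows also differed in base composition, with a median GC content of 48.8% against 37.2% over all protein-coding genes, whose part in the motif counts was not tested. TATAAA was found in 13.0% of the members' windows and 43% of all, TATCGATA (the DRE motif of housekeeping promoters) in 1.9% and 7.9%, and CAGGTA, the core bound by Zelda, in 5.6% and 5.42%.

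beat-IIIc, the most transcribed member, was called higher by a small margin. It was at 1310, 1340 and 1200 CPM in DomKD, against 989, 564 and 652 CPM in Ctrl. The groups did not overlap, Ctrl A1 lay nearest to DomKD, and the log2 fold change was 0.70 ± 0.17 (SE), with 0.42 within batch A and 0.98 within batch B, while scaling on the Zelda list turned it to −0.22. Without DomKD B1 (0.42) and under total counts (0.21) it no longer passed. beat-Ia, the first member described, which encodes a protein needed for motor axons to leave their bundle, was at 12.9, 11.9 and 24.4 CPM in DomKD and 10.4, 17.9 and 22.2 CPM in Ctrl. Its groups overlapped, and its log2 fold change of 0.27 ± 0.35 turned sign under total counts (−0.22) and under the Zelda list (−0.66). Of the beat genes that did not pass, beat-VII, whose low counts are given above, did not overlap between the groups, at a log2 fold change of 2.87 ± 1.72. Log2 fold changes of the other beat genes that did not pass lay between 0.44 for beat-IIb and 2.46 for beat-Va.

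Of the side genes, which encode the ligand side, 2 of 8 were called higher and none lower, and 7 of 8 fold changes were positive. side itself, the guidance cue for motor axons, was at 143, 159 and 157 CPM in DomKD, against 95.0, 56.6 and 68.3 CPM in Ctrl. All DomKD libraries were above all Ctrl libraries, with a log2 fold change of 1.00 ± 0.19 (SE), 0.67 within batch A and 1.34 within batch B. side-II was at 39.0, 18.8 and 34.2 CPM in DomKD, against 8.15, 7.13 and 5.72 CPM in Ctrl. Again the groups did not overlap, and the log2 fold change was 2.12 ± 0.39, a 4.35-fold difference, with 1.72 within batch A and 2.40 within batch B. Both calls were lost without DomKD B1, at 0.67 for side and 1.82 for side-II, and under the Zelda list, at 0.08 for side and 1.2 for side-II. Under total counts side was at 0.52 and did not pass.

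side-V, the most transcribed side gene, was at 343, 362 and 511 CPM in DomKD and 343, 273 and 295 CPM in Ctrl. DomKD A1 was level with Ctrl A1 and DomKD B1 stood above the rest, and its log2 fold change of 0.45 ± 0.18 did not pass and turned to −0.48 with the Zelda list, while without Ctrl A1 it was 0.79 and passed. side-VII was the side gene with a negative value, with 0, 8 and 9 counts in DomKD against 40, 129 and 123 in Ctrl. Its groups did not overlap, but at −2.71 ± 1.48 it did not pass. side-III, nearest to the threshold among the genes that missed it, was at 21.7, 11.8 and 11.1 CPM in DomKD and 3.69, 4.04 and 5.26 CPM in Ctrl, a log2 fold change of 1.71 ± 0.57. side-VIII, with 153, 15 and 39 counts in DomKD against 10, 5 and 39 in Ctrl, had the highest fitted value of the family (2.72 ± 1.36) and did not pass.

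Of the 21 dpr genes, all tested, 4 were called higher and 1 lower, with 14 positive and 7 negative fold changes. dpr4, a short gene of 9.5 kb on chromosome 3R, was counted 76, 19 and 7 times in DomKD, against 234, 556 and 425 times in Ctrl. In CPM it was at 8.47, 2.11 and 0.523 in DomKD and at 16.6, 19.5 and 16.4 in Ctrl. The groups did not overlap, but the DomKD libraries were far apart, and the difference was −1.93 in batch A alone and −4.81 in batch B alone. The log2 fold change was −3.17 ± 0.93 (SE), and the call was lost without any 1 of DomKD A2 (−2.93), DomKD B1 (−1.65), Ctrl A1 (−5.14), Ctrl B1 (−3.03) or Ctrl B2 (−3.14). Its neighbour dpr5, 27532 bases away, had 50, 178 and 14 counts in DomKD against 25, 32 and 18 in Ctrl, with groups that overlapped.

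dpr12, whose product binds DIP-delta, had the largest positive call among the dpr genes and was the called member whose groups overlapped. It was at 3.57, 17.1 and 27.5 CPM in DomKD, against 2.62, 2.99 and 6.30 CPM in Ctrl. DomKD A1 lay below Ctrl B2, so the groups overlapped, although within each batch DomKD was above Ctrl (by 1.54 in A and 2.63 in B). The log2 fold change was 2.28 ± 0.65, and leaving out any 1 of DomKD A2 (1.76), DomKD B1 (1.97), Ctrl A1 (2.5), Ctrl B1 (2.05) or Ctrl B2 (2.51) ended the call, as did total counts (1.79) and the Zelda list (1.35).

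dpr17, dpr16 and dpr21 had more even values. dpr17 was at 22.6, 24.6 and 33.6 CPM in DomKD, against 6.45, 18.6 and 20.6 CPM in Ctrl, with a log2 fold change of 1.31 ± 0.37 (SE). Ctrl A1 was low, and the difference in batch A was 1.85 and in batch B 0.78. dpr16 was at 57.2, 47.1 and 76.9 CPM in DomKD, against 23.2, 31.6 and 47.0 CPM in Ctrl, with a log2 fold change of 1.07 ± 0.24. DomKD A2 and Ctrl B2 nearly touched, and the difference was 1.16 in A and 0.99 in B. dpr21 was at 80.1, 53.2 and 76.2 CPM in DomKD, against 32.6, 38.1 and 37.4 CPM in Ctrl, with a log2 fold change of 1.02 ± 0.23 and the same difference in both batches (1.00 in A and 1.01 in B). All 3 calls were lost without DomKD B1, at 1.87 for dpr17, 1.17 for dpr16 and 1.03 for dpr21, and without Ctrl A1, at 0.72, 0.90 and 0.95 in the same order. Without Ctrl B1 those of dpr17 (1.35) and dpr16 (0.97) were lost too, and without Ctrl B2 that of dpr17 (1.42). All 3 were also lost under total counts, at 0.83 for dpr17, 0.58 for dpr16 and 0.54 for dpr21, and under the Zelda list, at 0.39 for dpr17, 0.14 for dpr16 and 0.10 for dpr21.

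dpr1, which gave the family its name through a defect in the proboscis extension response to salt, was at 37.4, 13.8 and 10.1 CPM in DomKD and 5.60, 8.75 and 14.3 CPM in Ctrl. Its groups overlapped, and the batches disagreed, with 2.00 within batch A and −0.15 within batch B, at a fitted log2 fold change of 0.99 ± 0.69 that was −0.25 without Ctrl A1. dpr19 and dpr7, the short and well transcribed members, did not pass: dpr19 was at 25.9, 18.8 and 13.8 CPM in DomKD and 25.5, 35.1 and 32.2 CPM in Ctrl, and dpr7, on chromosome 4, at 16.6, 36.8 and 46.0 CPM in DomKD and 29.5, 57.4 and 45.9 CPM in Ctrl. For both genes DomKD and Ctrl overlapped, at log2 fold changes of −0.73 ± 0.36 for dpr19 and −0.16 ± 0.31 for dpr7. Scaled by total counts or on the Zelda list, dpr19 was called lower (−1.22 and −1.65), as was dpr7 with the Zelda list (−1.08), and without DomKD A1 dpr19 passed as well (−0.92). dpr8, just outside the threshold, was at 19.1, 15.1 and 18.1 CPM in DomKD against 7.87, 8.29 and 5.53 CPM in Ctrl, a log2 fold change of 1.25 ± 0.43. The other dpr genes that did not pass lay between −1.53 for dpr2 and 1.62 for dpr9, most of them with few reads.

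Of the DIP genes 1 of 10 tested was called higher, 1 lower, and 8 did not pass. DIP-alpha, whose product binds Dpr6 and Dpr10, was the clearest lower member. It was counted 958, 970 and 1608 times in DomKD, against 3880, 6532 and 6046 times in Ctrl, or 107, 108 and 120 CPM in DomKD and 275, 229 and 234 CPM in Ctrl. The 3 DomKD libraries were close together and all below Ctrl, and the log2 fold change was −1.15 ± 0.16 (SE), a level 2.22-fold lower in DomKD, with −1.36 within batch A and −0.94 within batch B. Without DomKD B1 it stayed at −1.36 but no longer passed.

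DIP-lambda, the longest member, was at 90.5, 81.9 and 116 CPM in DomKD, against 38.7, 71.4 and 52.9 CPM in Ctrl. The groups did not overlap, and the log2 fold change was 1.03 ± 0.20 (SE), with 1.15 within batch A and 0.91 within batch B. The call was lost under total counts (0.55), under the Zelda list (0.10), without DomKD B1 (1.15) and without Ctrl A1 (0.84). DIP-theta and DIP-epsilon, next to DIP-alpha in level per kb, did not pass: DIP-theta averaged 117 ± 15.7 CPM in DomKD and 121 ± 20.7 CPM in Ctrl, and DIP-epsilon 116 ± 42.4 CPM in DomKD and 86.7 ± 15.0 CPM in Ctrl (SD, n = 3 each). The groups of both overlapped, with log2 fold changes of −0.06 ± 0.18 for DIP-theta and 0.52 ± 0.22 for DIP-epsilon, but with the Zelda list DIP-theta was called lower (−0.98), and with total counts as well (−0.54). The other DIP genes that did not pass lay between −0.18 for DIP-iota and 3.47 for DIP-delta.

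**Figure D4:**
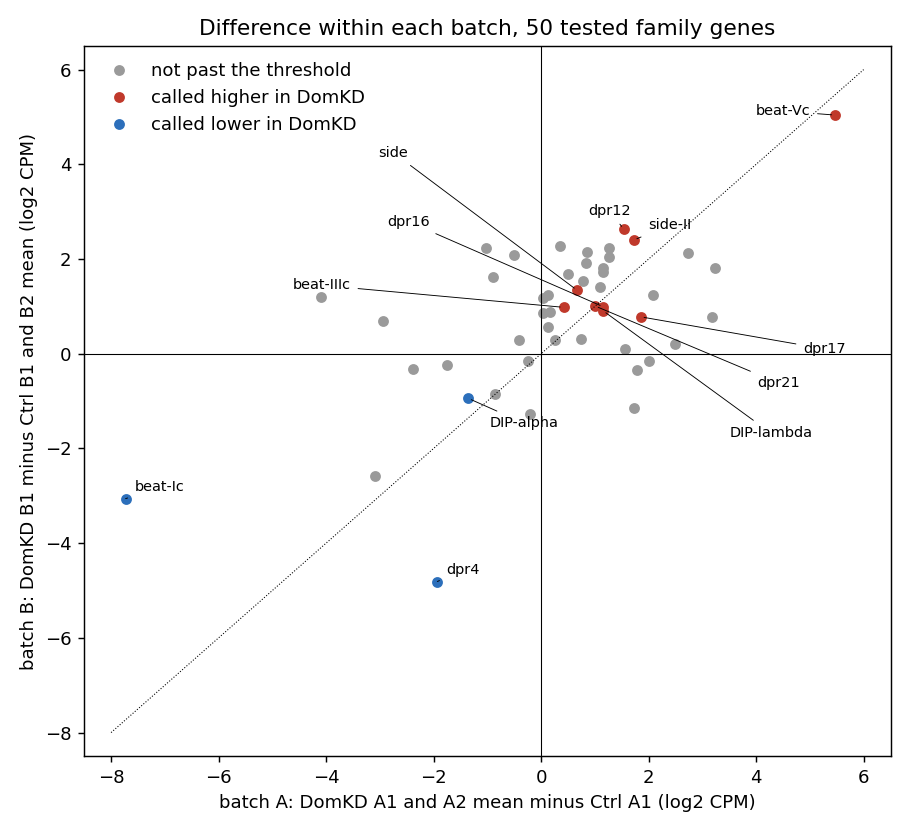
Difference between DomKD and Ctrl in log2 CPM within batch A (x axis) and within batch B (y axis) for the 50 tested genes, with the dotted line where both are equal. All 12 called genes have the same sign in both batches, and 9 of the 50 genes, all of them grey, have opposite signs.

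The batches held unequal numbers of both groups, so each difference was also taken within them. The sign was the same in both batches for 41 of the 50 members, with 32 positive and 9 negative, and opposite for 9. The members' median difference was 0.70 in batch A and 0.99 in batch B. A fit with no batch term lost the calls of dpr12 (2.01), dpr16 (0.83), dpr17 (0.82), dpr4 (−2.25) and DIP-lambda (0.82).

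In none of the known binding partners set side by side here were both genes called. side (1.00, called higher) binds Beat-Ia, whose gene was at 0.27. Side-VI binds the Beat-V proteins, and side-VI, at 11.5, 10.3 and 15.0 CPM in DomKD against 6.31, 4.85 and 5.33 CPM in Ctrl, had a log2 fold change of 1.18 ± 0.51 that did not pass, beside 5.37 for beat-Vc. DIP-alpha (−1.15) stood beside dpr6 at 0.55 ± 0.37 and dpr10 at −0.90 ± 1.93, dpr10 with 11, 0 and 9 counts in DomKD against 42, 4 and 21 in Ctrl. dpr12 (2.28) stood beside DIP-delta, with 88, 0 and 33 counts in DomKD against 0, 63 and 22 in Ctrl. DIP-gamma at 1.72 ± 0.74 stood beside dpr11 at −0.55 ± 2.48, and neither passed. dpr11 had few reads, with 31, 0 and 4 counts in DomKD against 15, 4 and 54 in Ctrl. The pairs are a selection, and no pattern is read from them. Other known partners, also those of DIP-gamma among the dpr genes, were not set side by side, and dpr11 does not stand for them. Of the 21 dpr genes, 14 had positive and 7 had negative log2 fold changes.

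The nearest upstream gene on the same strand as a called member mostly had few or no reads. Of the called members with such a neighbour, 4 had one with enough reads to test, and none of these passed: mol upstream of side-II (0.76 ± 0.64), Tsp42A of dpr12 (3.31 ± 3.66), RabGGTa of dpr16 (0.48 ± 0.17) and Parg of DIP-alpha (0.15 ± 0.24).

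**Figure D5:**
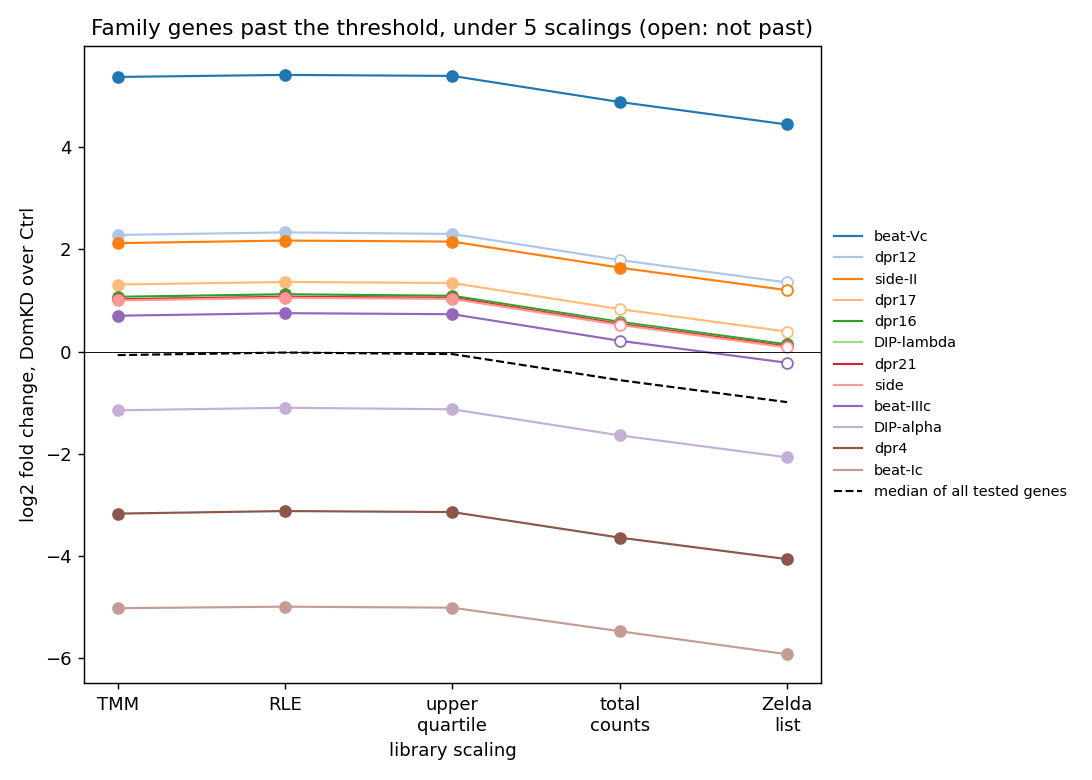
Log2 fold change (DomKD over Ctrl, y axis) of the 12 called genes under 5 library scalings (x axis), with filled points past the threshold, open points not past it, and the dashed line the median of all tested genes. beat-Vc stays above 4 throughout, while beat-IIIc goes from 0.70 with TMM to −0.22 with the Zelda list.

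Other genes of axon guidance and adhesion were set beside the families. Over all genes tested 12.1% were called higher and 9.64% lower, and among those of at least 10 kb 23.1% and 8.19%. Of 25 tested genes for other immunoglobulin-domain surface proteins, 15 were higher and 1 lower, with a median log2 fold change of 0.61. The largest positive changes past the threshold were those of Dscam4 (2.69 ± 0.34, adjusted p = 0.000783 by edgeR), of the Dscam group of neuronal recognition proteins, and tutl (1.15 ± 0.19, adjusted p = 0.00174), and the lower gene was Nrg, the fly neuroglian (−0.70 ± 0.22, adjusted p = 0.0374). Of 26 tested guidance and synaptic adhesion genes outside these groups, 9 were higher and none lower, with a median of 0.45. Nlg4, a neuroligin, had the largest change past the threshold (3.87 ± 0.74, adjusted p = 0.00424 by edgeR), followed by the receptor phosphatase gene Ptp99A (1.18 ± 0.18, adjusted p = 0.00154). These lists were transcribed at higher levels than the families, with median Ctrl levels of 4.36 CPM per kb for the first and 2.54 CPM per kb for the second. With total counts the first list had 8 higher and 2 lower and the second 3 higher and 6 lower. Of all genes tested 5.16% were then higher and 26.3% lower. With the Zelda list the first had 1 higher and 6 lower and the second 1 higher and 13 lower, beside 1.03% higher and 42.7% lower of all genes. Without DomKD B1 neither list had a gene called higher, and 0.057% of all genes tested were. Without Ctrl A1 the first list had 6 and the second 4, beside 4.38% of all genes tested. The call of Nrg was lost without any 1 library other than Ctrl B2.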

How the data were processed

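GRO-seq was performed on stage 5 embryos, with 3 DomKD and 3 Ctrl libraries. The authors deposited raw read counts for each gene in each library, beside a gene length. According to the methods, reads were trimmed with Cutadapt 2.5, stripped of random bases with UMI-tools 1.0, aligned to dm6 with Bowtie2, filtered on mapping quality and counted per gene and strand with featureCounts, without removing duplicates, so reads are not independent molecules and floors cover counting error only. The deposited length equalled the annotated span, introns included, for 53 of the 54 members. Reads in same-strand overlaps are uncertain (17 of 54 members overlap another gene, 2 over more than 10% of their length).

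Genes averaging 10 counts or more across libraries entered the test in R 4.3.3 with edgeR 4.0.16 (glmQLFit, robust, glmQLFTest, two-sided, TMM scaling, batch and group in the model, Benjamini-Hochberg over all genes tested, threshold 0.05). SE is the size of the log2 fold change over the square root of F. CPM uses TMM-scaled library sizes, log2 CPM a prior count of 2, and silent means at most 3 counts. The script was tested on simulated data. The Zelda target set on which the study scaled libraries is not used here; a written list of 55 genes (53 found) stood in as an alternative, as did DESeq2 1.42.0. Gene names and positions came from Ensembl and RefSeq annotations of the same assembly (17626 of 17753 rows matched).

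The members, gene lists and tests were chosen with earlier results of these data known. Values are given in full for members past the threshold, for beat-Ia, side, dpr1 and DIP-alpha, for the 5 members highest in Ctrl per kb and for those nearest the silent rule (DIP-kappa, beat-IIIa and beat-IIIb). Other members shown beside them (neighbours in a cluster, binding partners, those nearest the threshold, beat-VII, dpr13 and beat-Vb, DIP-theta and DIP-epsilon) were chosen after their values were seen.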

Additional observations from a re-analysis of the deposited data

How the results depend on the processing

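With total counts 2 members were called higher and 5 lower, at a median log2 fold change of 0.46, and with the Zelda list 1 higher and 8 lower, at a median of 0.03, because both shift all genes down (medians −0.56 and −0.99). Of all genes tested 5.16% were higher and 26.3% lower with total counts, and 1.03% and 42.7% with the Zelda list. With DESeq2 16 of 50 members were higher, among them all 9 of the edgeR calls, beside 16.1% of all genes tested. With the replicate number as a block in place of batch 3 members were called higher and 1 lower. Correlations of same-numbered DomKD and Ctrl libraries ran from −0.36 to 0.24 and were positive only within a batch (0.20 and 0.24). Pairs of the same batch with different numbers had 0.16 and 0.24, so a shared number added nothing visible beyond the batch. Negative values are partly forced, because each library was taken relative to its group mean. Over all genes tested the replicate block called 610 higher and 425 lower, against 1259 and 1005 with batch.

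Leaving out each library in turn gave 1 to 12 members higher, 1 to 4 lower and a median of 0.78 to 1.02. Of all genes tested 0.057% to 14.5% were then higher and 0.029% to 15.1% lower. Without DomKD B1, 9 genes of the whole table were called, with 1 member in each direction. Within batch A the median was 0.70. With at most 0 counts in every Ctrl library 1 member was silent, and 2 to 3 by the main rule when a Ctrl library was left out.

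The sign turned for beat-Ia with total counts (−0.22), the Zelda list (−0.66), no batch term (−0.04) and the replicate block (−0.03), for side-V with total counts (−0.04) and the Zelda list (−0.48), for beat-IIIc with the Zelda list (−0.22), for dpr7 without DomKD A1 (0.04) and for dpr1 without Ctrl A1 (−0.25). Other causes than the shift in scaling were not tested. beat-Vc kept its call in all 15 alternative fits, DIP-alpha in 14 and beat-Ic in 13. Depth limits the low members: of the tested genes, 564 to 1014 had no read in a DomKD library and 162 to 326 had none in a Ctrl library.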
